A study of Mus musculus with 6 samples.

Results

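Sorcs1, Hpcal1, Etfbkmt and Acot11 are 4 genes, of 25006 counted and 12313 tested, that were far lower in mouse ovarian surface epithelial (MOSE) cells overexpressing the transcription factor PAX8 than in the reference line. They were chosen by the size of that fall in these same libraries, read from their counts, so their difference between the lines is given as a description, without a test. RNA sequencing covered 3 libraries of MOSE-NEO, the reference line, and 3 of MOSE-PAX8, the line that overexpresses PAX8. Both lines come from murine ovarian surface epithelium, the cell layer that covers the ovary, and both were kept as stable lines under the antibiotic G418, so they share that selection. No further treatment, time or age is named. The labels name 1 line per group, and whether a line was 1 clone and which promoter drives PAX8 is not stated in the labels. Separate cultures are not named either, so the replicate error here may be no more than technical, and p-values rest on it.

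The 4 genes belong to different protein families. SORCS1 is a membrane receptor of the VPS10 domain family, which sorts cargo such as the amyloid precursor protein between the Golgi, endosomes and the cell surface, and it is best known from neurons and insulin-secreting cells. HPCAL1 (hippocalcin-like 1, also VILIP-3) is a neuronal calcium sensor, a small EF-hand protein whose lipid anchor is exposed when calcium binds, and it has been described as an autophagy receptor for N-cadherin in ferroptosis, an iron-dependent form of cell death. ETFBKMT is a mitochondrial methyltransferase that modifies lysines of ETFB, a subunit of the electron transfer flavoprotein that accepts electrons from acyl-CoA dehydrogenases. ACOT11 (also THEM1 or BFIT) is a thioesterase with a lipid-binding START domain that splits long-chain acyl-CoA into fatty acid and free coenzyme A, and it was first known as a gene induced by cold in brown fat.

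The libraries held 23623762 to 36367825 counts. Pax8 had 0, 1 and 1 counts in MOSE-NEO against 2570, 2973 and 3544 in MOSE-PAX8 in libraries 1 to 3. Of 8 markers of the ovarian surface and mesothelium, Wt1, Upk3b, Lrrn4, Msln, Krt7 and Krt18 had means of 252 CPM (CPM is the read count scaled to library size with TMM factors) or more in both lines, while the means of Krt8 and Krt19 were below 1 CPM. The 8 markers summed to 9400 to 10500 CPM in MOSE-NEO against 5750 to 6870 CPM in MOSE-PAX8. Since 2 of the 4 genes are known from neurons and 1 from brown fat, markers of those cells were read too. Snap25, Ucp1 and Cidea had 0 counts in every library, and the 5 adipocyte markers summed to at most 0.534 CPM. The 5 neural markers summed to 0.304 to 0.699 CPM in MOSE-NEO against 41.8 to 56.8 CPM in MOSE-PAX8, nearly all of it from Map2, a microtubule-associated protein, at 50.9 CPM. The 5 leukocyte markers reached at most 16.8 CPM and the 5 endothelial markers at most 0.996 CPM in any library. Within the leukocyte list the macrophage receptor gene Csf1r was lower in MOSE-PAX8 (10.6 against 4.2 CPM), while Ptprc (CD45) was higher, at 196 counts over 3 libraries against 1. The 7 granulosa and theca markers summed to 410 to 510 CPM in MOSE-NEO against 350 to 391 CPM in MOSE-PAX8, nearly all of it Star. Of the others, Fshr, Cyp19a1 and Lhcgr had 0 counts, and Foxl2 had 1 count over the MOSE-NEO libraries and 182 over the MOSE-PAX8 libraries. The part of these differences in the results was not tested. The share of counts in lincRNA genes was 0.317% in MOSE-NEO 1 and 0.33% in MOSE-PAX8 2, against 0.146% to 0.195% elsewhere.

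Sorcs1 (ENSMUSG00000043531), a gene of 535 kb on the minus strand of chromosome 19 (mm10, 50143299 to 50678646), was the most abundant of the 4 in counts. It had 52.5, 50.6 and 40.7 CPM in MOSE-NEO libraries 1 to 3 and 2.57, 2.26 and 2.03 CPM in MOSE-PAX8 libraries 1 to 3. The libraries of each line lay within 1.29-fold of each other, and the lowest MOSE-NEO library was 15.8-fold above the highest MOSE-PAX8 library. Libraries that did not overlap, by any margin, with MOSE-PAX8 lower were present for 22.2% of all tested genes, and for the 4 genes this follows from their choice. The means were 47.9 ± 6.32 and 2.29 ± 0.269 CPM (SD, n = 3), a log2 fold change of -4.38, or 20.8-fold lower. In bulk RNA, fewer cells that express a gene and less RNA per cell cannot be told apart.

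Hpcal1 (ENSMUSG00000071379) lies on the plus strand of chromosome 12 (17690856 to 17791933). Its levels were 15.2, 19.4 and 20.9 CPM in MOSE-NEO against 0.656, 1.23 and 1.51 CPM in MOSE-PAX8. The lines did not overlap, with 10.1-fold between the nearest libraries, but the MOSE-PAX8 libraries differed among themselves by 2.3-fold. These were 24, 39 and 49 counts, and the exact 95% Poisson intervals of the lowest (15.4 to 35.7) and the highest (36.3 to 64.8) did not overlap, although MOSE-PAX8 1 was the most deeply counted library. Such intervals cover counting error only. The means were 18.5 ± 2.94 and 1.13 ± 0.435 CPM (SD, n = 3), or 16.5-fold lower (log2 fold change -4.04).

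Etfbkmt (ENSMUSG00000039958) is the shortest of the 4 in genomic span, at 11.3 kb on the plus strand of chromosome 6 (149139849 to 149151171). It had 11.4, 9.69 and 9.56 CPM in MOSE-NEO against 0.738, 0.943 and 1.02 CPM in MOSE-PAX8. The MOSE-NEO libraries were within 1.2-fold of each other, the closest among the 4 genes, and the nearest libraries of the lines were 9.4-fold apart. The means were 10.2 ± 1.05 and 0.899 ± 0.144 CPM (SD, n = 3), or 11.4-fold lower (log2 fold change -3.51).

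Acot11 (ENSMUSG00000034853), on the minus strand of chromosome 4 (106744555 to 106804998), was the least uniform in MOSE-NEO. Its levels were 10, 15.5 and 7.93 CPM there and 1.86, 1.76 and 1.36 CPM in MOSE-PAX8. MOSE-NEO 2 was high and MOSE-NEO 3 low, a 1.96-fold spread, and the lowest MOSE-NEO library was still 4.27-fold above the highest MOSE-PAX8 library. The means were 11.2 ± 3.92 and 1.66 ± 0.267 CPM (SD, n = 3), or 6.68-fold lower (log2 fold change -2.74). Fam151a, a coding gene that overlaps the 3' end of Acot11 on the other strand, had 0 counts in every library.

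**Figure D1:**
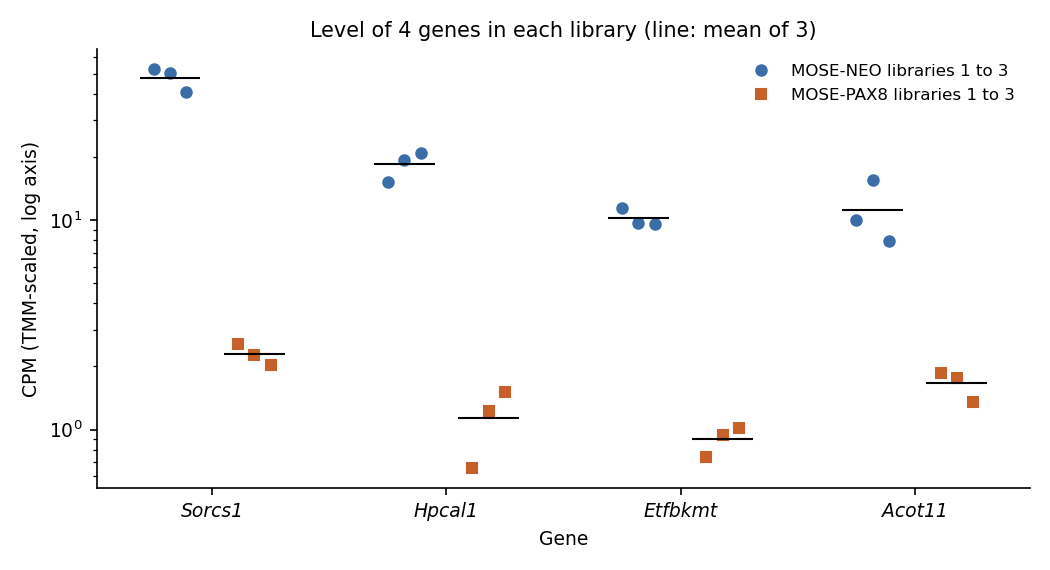
Level of Sorcs1, Hpcal1, Etfbkmt and Acot11 in each library, as CPM on a log axis, with a line at the mean of 3 libraries. For each gene the MOSE-NEO libraries (circles) lie above the MOSE-PAX8 libraries (squares), with the widest gap for Sorcs1 and the narrowest for Acot11.

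None of the 4 reached 0 counts. Transcripts in MOSE-PAX8 amounted to 4.78% of the MOSE-NEO mean for Sorcs1, 6.11% for Hpcal1, 8.79% for Etfbkmt and 14.9% for Acot11. The order of the genes also changed with the line. Per kilobase of exon, Hpcal1 led in MOSE-NEO at 10.9 ± 1.73 CPM, followed by Sorcs1 (5.68 ± 0.749), Etfbkmt (4.1 ± 0.419) and Acot11 (1.84 ± 0.647), and no gene's libraries overlapped those of the next. Those levels lay above 62.7%, 44.5%, 36.8% and 23.9% of tested genes. In MOSE-PAX8 the levels per kilobase were 0.667 ± 0.257 CPM for Hpcal1, 0.36 ± 0.0578 for Etfbkmt, 0.274 ± 0.044 for Acot11 and 0.271 ± 0.0319 for Sorcs1, above 13.5%, 9.09%, 7.46% and 7.38% of tested genes. There each gene's libraries overlapped those of the next in this order.

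Of all 12313 tested genes, 1979 were called lower, which is 16.1%, and 2199 higher, which is 17.9%, at an edgeR adjusted p below 0.05. The next values place the 4 genes by the quantity that chose them and are a description only. Among 1596 of the lower genes, all protein-coding, with at least 10 CPM in MOSE-NEO and every MOSE-NEO library above every MOSE-PAX8 library, the 4 genes took places 4, 6, 7 and 10 by size of fall. Without the limits on level, gene type and overlap, 58 genes called lower, Acot11 included, had a fall at least as large as that of Acot11. Etfbkmt at 10.2 CPM stood just inside the limit on level. Directly after Acot11 came Plcd4, a phospholipase C gene (6.66-fold lower, 34.9 to 5.26 CPM), Cpz, a carboxypeptidase gene (6.47-fold lower), and Ptp4a3, a phosphatase gene (6.44-fold lower). Acot11 and Plcd4 were therefore nearly equal in fold. Fam213a, which is not among the 4, took place 9 (8.36-fold lower), so no limit on fold sets the 4 genes apart.

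The promoters of Hpcal1 and Sorcs1 are shown because they hold letters of the sequence that paired-domain proteins of the PAX2, PAX5 and PAX8 group bind. The 250 bases before the RefSeq start are given 5′ to 3′ on the strand of the gene (GRCm38.p6), in lower case. Capitals mark GCGTGAC in Hpcal1 and its inner CGTGAC in Sorcs1, the shorter run having been searched after the sequences were seen.
Hpcal1, chr12:17690559-17690808, plus strand: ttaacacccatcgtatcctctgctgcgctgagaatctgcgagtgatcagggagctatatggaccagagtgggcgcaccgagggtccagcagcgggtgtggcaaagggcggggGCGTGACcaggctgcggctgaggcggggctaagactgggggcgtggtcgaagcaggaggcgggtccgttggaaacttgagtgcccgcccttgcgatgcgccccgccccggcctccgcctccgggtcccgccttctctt
Sorcs1, chr19:50678647-50678896, minus strand: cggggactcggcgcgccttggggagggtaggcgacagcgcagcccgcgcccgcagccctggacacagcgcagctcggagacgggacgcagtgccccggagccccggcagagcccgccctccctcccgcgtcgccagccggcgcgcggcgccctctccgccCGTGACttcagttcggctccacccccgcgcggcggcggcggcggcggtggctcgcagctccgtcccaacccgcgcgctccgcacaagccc

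Both strands of each 300-base window (250 bases before the start and 50 after) were searched for GCGTGAC, whose reverse complement is GTCACGC. It occurred 1 time at Hpcal1, with its last base 132 bases before the start, and not in the windows of Sorcs1, Etfbkmt and Acot11. It was present in 2.09% of all 32851 promoters of the same length and in 4.15% of the first promoters of 9730 tested genes found in the RefSeq table. The inner 6 letters, which every such match also holds, occurred in the Hpcal1 and Sorcs1 windows, in 8.22% of all promoters and in 14.1% of those of tested genes. At Sorcs1 they ended 85 bases before the start. A match of letters is a description and not a measured site.

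The same windows differed in base composition. GC content was 80.7% at Sorcs1, 68.3% at Hpcal1, 66% at the first Acot11 promoter and 53.3% at Etfbkmt, against a median of 61% for tested genes. The ratio of observed to expected CpG was 1.04, 0.781, 0.623 and 0.892 in that order, against a median of 0.773. Acot11 has another RefSeq start further into the gene, with a CpG ratio of 0.339. The RefSeq start of Etfbkmt (149141513) lies inside the gene as GENCODE draws it. Its window therefore does not cover the GENCODE start (149139849), which limits the values given for it. The windows of Etfbkmt and Acot11 held no match and were not printed.

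Of the 3 other tested receptors of the Sorcs1 family, 2 were called higher and 0 lower, against 17.9% and 16.1% of all tested genes. So few genes show no trend of the family. Of the other VPS10 receptors, Sort1, which encodes sortilin, had 205, 190 and 214 CPM in MOSE-NEO against 232, 224 and 229 CPM in MOSE-PAX8, and was not called (log2 fold change 0.17 ± 0.08 SE, edgeR adjusted p = 0.124). Sorcs2 rose 4.02-fold at a very low level, from 0.174 ± 0.0756 to 0.686 ± 0.0268 CPM (adjusted p = 0.00404). Sorl1, a receptor that also sorts the amyloid precursor protein, rose 1.62-fold from 3.96 ± 0.643 to 6.41 ± 1.47 CPM (SD, n = 3, adjusted p = 0.0328). The call of Sorl1 was lost when any library other than MOSE-PAX8 1 was left out, with adjusted p of 0.055, 0.0603 and 0.0903 without MOSE-NEO 1 to 3, and 0.0956 and 0.0709 without MOSE-PAX8 2 and 3. Sorcs3 had 0 counts throughout. Per kilobase, Sorcs1 stood after Sort1 in MOSE-NEO (5.68 against 26.9 CPM) and after Sort1 and Sorl1 in MOSE-PAX8 (0.271 against 30.2 and 0.566 CPM).

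The called genes of the sorting machinery and of receptor cargo were all lower. Of 26 tested genes of retromer, sorting nexins, amyloid precursor processing and receptor cargo, 8 fell and 18 were not called, with a median log2 fold change of -0.06 against 0.008 for all tested genes. This is 30.8% called lower, against 16.1% of all tested genes. The retromer core genes Vps35 and Vps26a had log2 fold changes of 0.01 ± 0.1 and 0.00 ± 0.1 (SE). The amyloid precursor gene App had 998, 1000 and 1110 CPM in MOSE-NEO against 935, 743 and 876 CPM in MOSE-PAX8, and was not called (adjusted p = 0.0707). Its relative Aplp1 fell 2.29-fold, from 166 ± 16.4 to 72.4 ± 4.78 CPM (SD, n = 3, adjusted p = 4.51e-05). The sorting nexin gene Snx27 fell, with a log2 fold change of -0.57 ± 0.08 (SE, adjusted p = 0.000779). Ntrk2, the receptor of the neurotrophin BDNF, was singled out after its values were seen. It fell from 45 counts over the 3 MOSE-NEO libraries to 8 over the MOSE-PAX8 libraries (adjusted p = 0.0016).

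Hpcal1 was the leading neuronal calcium sensor of MOSE-NEO, and its nearest relatives were almost absent. Of the other 12 genes of the family, 3 could be tested. Hpca, Ncald, Hpcal4 and Vsnl1, the members closest to Hpcal1, had 4, 0, 0 and 0 counts over the MOSE-NEO libraries and 1, 0, 0 and 1 over the MOSE-PAX8 libraries. Kcnip3, a potassium channel-interacting sensor, fell 1.87-fold from 2.86 ± 0.33 to 1.53 ± 0.283 CPM (SD, n = 3, adjusted p = 0.0137), and lost the call without MOSE-PAX8 3 (0.0518). Guca1a, an activator of guanylate cyclase, and Kcnip4 were not called, with log2 fold changes of 0.14 ± 0.29 and -0.39 ± 0.45 (SE). Ncs1 had 0 counts in MOSE-NEO against 13 in MOSE-PAX8 and was not tested. Per kilobase, Hpcal1 stood at 10.9 CPM against 1.01 CPM for Guca1a in MOSE-NEO, and below it in MOSE-PAX8 (0.667 ± 0.257 against 1.11 ± 0.281 CPM), where the libraries of both genes overlapped.

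Of 22 tested ferroptosis genes, a list that includes N-cadherin (Cdh2), 6 rose and 4 fell, 45.5% called against 33.9% of all tested genes, with a median log2 fold change of 0.13. Cdh2 had 110, 115 and 115 CPM in MOSE-NEO against 269, 281 and 319 CPM in MOSE-PAX8, a 2.55-fold rise (adjusted p = 1.46e-05). All MOSE-PAX8 libraries lay above all MOSE-NEO libraries, as they did for 25.3% of tested genes, the opposite of Hpcal1. The iron importer gene Tfrc and the iron exporter gene Slc40a1 rose as well, with log2 fold changes of 0.61 ± 0.12 and 0.94 ± 0.2 (SE). Ncoa4, the receptor for autophagy of ferritin, fell 2.18-fold from 26.1 ± 5.38 to 11.9 ± 1.93 CPM (SD, n = 3). It lies on chromosome 14, whose 393 tested genes had a median log2 fold change of -0.43. Aifm2 (FSP1) and the polyamine acetyltransferase gene Sat1 fell, with log2 fold changes of -0.47 ± 0.09 and -0.82 ± 0.18 (SE).

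The fall of Etfbkmt, which its choice fixed, can be set beside its enzyme family. The other 13 tested seven-beta-strand methyltransferases of its list, not all of which modify lysine, had log2 fold changes between -0.54 and 0.38 (median -0.14). Of these, 1 rose, 2 fell and 10 were not called (23.1% called, against 33.9% of all tested genes). Eef1akmt1, which modifies the translation factor eEF1A, fell 1.46-fold from 19.3 ± 3.06 to 13.2 ± 0.197 CPM, and Mettl22 fell 1.43-fold from 8.49 ± 0.318 to 5.92 ± 0.456 CPM (SD, n = 3; adjusted p = 0.00875 and 0.0121). Eef1akmt1 also lies on chromosome 14. Eef1akmt2 was called higher (log2 fold change 0.38 ± 0.12 SE, adjusted p = 0.0454), a call lost with DESeq2 (0.0682), with RLE factors (0.0542), in the fit blocked on replicate number (0.0519) and without any library but MOSE-PAX8 2 (0.0522 to 0.179). The remaining values were -0.15 for Mettl21a, -0.40 for Eef1akmt3, -0.14 for Eef2kmt, 0.01 for Vcpkmt, -0.29 for Camkmt, 0.13 for Mettl13, 0.11 for Mettl18, -0.21 for Mettl23, -0.10 for Fam173a and -0.14 for Fam173b. Per kilobase, Etfbkmt ranked 8 of 14 in MOSE-NEO against 13 of 14 in MOSE-PAX8, above only Eef1akmt3.

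Etfb, the gene of the ETFBKMT substrate, was not called. It had 106, 129 and 113 CPM in MOSE-NEO against 119, 105 and 119 CPM in MOSE-PAX8, overlapping sets of values (log2 fold change -0.02 ± 0.1 SE, adjusted p = 0.889). Etfa and Etfdh, the other subunit and the ubiquinone oxidoreductase, had log2 fold changes of -0.02 ± 0.11 and -0.18 ± 0.08 (SE) and were not called. Of 19 tested genes of the flavoprotein and its dehydrogenases, 1 rose, 3 fell and 15 were not called (21.1% called, against 33.9% of all tested genes), with a median of -0.11. Acad12 fell 2.95-fold from 10.8 ± 1.1 to 3.64 ± 0.368 CPM and Acad11 1.49-fold from 69.7 ± 3.77 to 46.7 ± 2.05 CPM (SD, n = 3; adjusted p = 0.000101 and 0.000613). Both encode acyl-CoA dehydrogenases. Sardh, the sarcosine dehydrogenase gene, rose 1.5-fold from 31.2 ± 2.36 to 46.9 ± 2.24 CPM (adjusted p = 0.001). Acadvl, for very long chains, was called lower (log2 fold change -0.26 ± 0.07 SE, adjusted p = 0.0191), but not without MOSE-NEO 2 or 3 or MOSE-PAX8 1 or 2 (0.0503, 0.0562, 0.0666 and 0.0617).

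**Figure D2:**
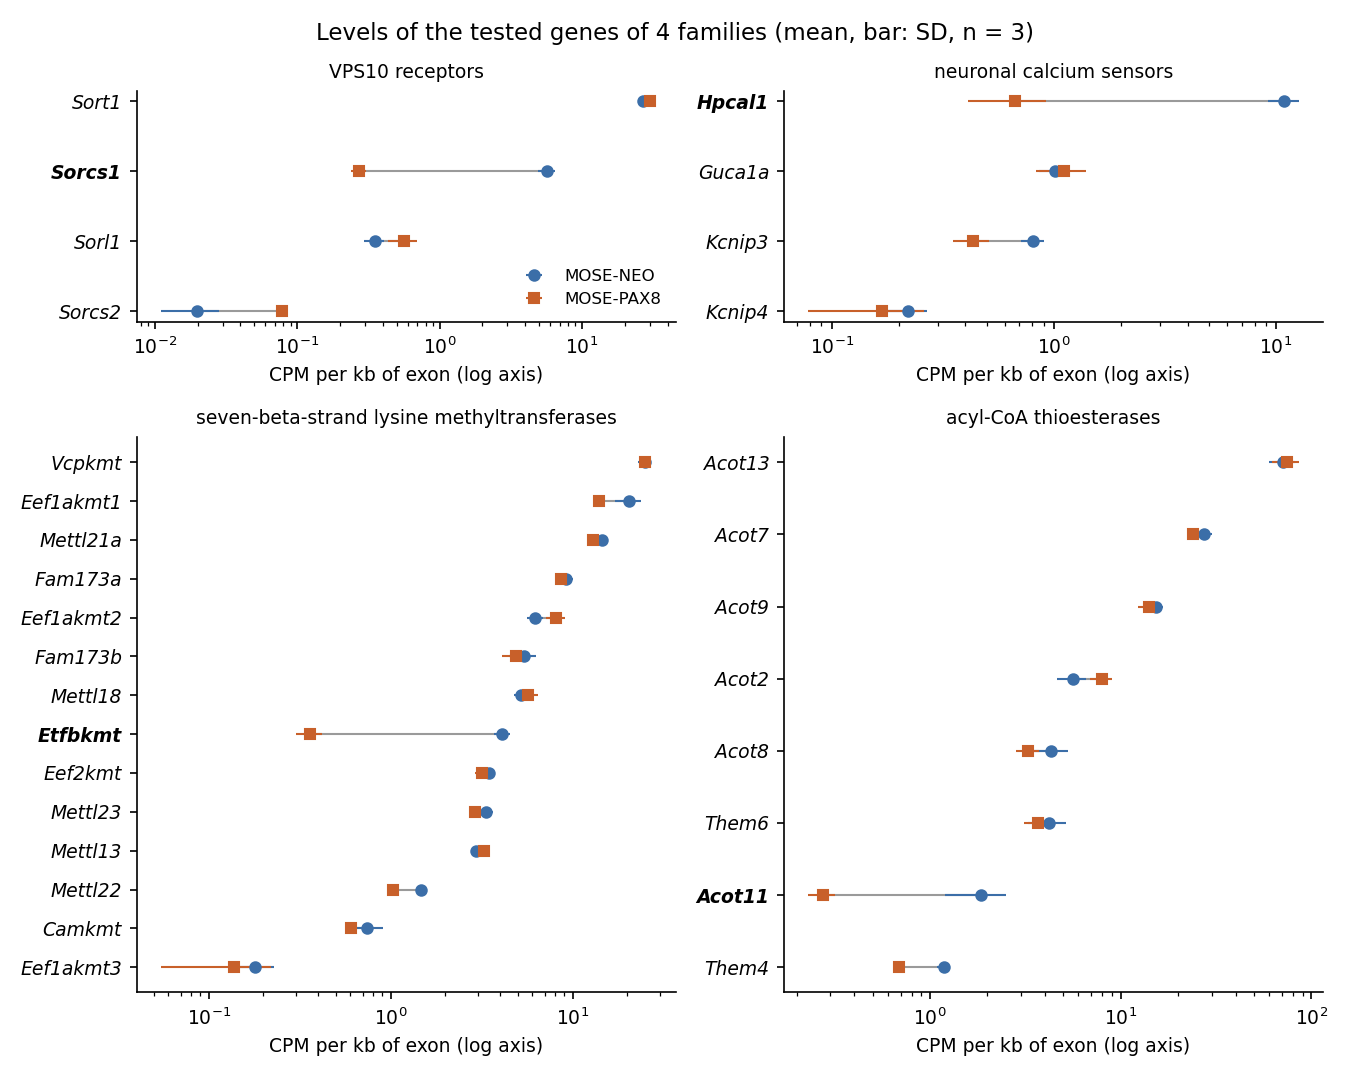
Mean level per kilobase of exon (log axis, bars SD, n = 3) in MOSE-NEO (circles) and MOSE-PAX8 (squares) for the tested genes of 4 families, ordered by MOSE-NEO. The bold genes Sorcs1, Hpcal1, Etfbkmt and Acot11 show the widest gap between lines in their panels.

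Acyl-CoA thioesterases other than Acot11 changed by less than 2-fold. Of 7 tested, 1 rose, 1 fell and 5 were not called (28.6% called, against 33.9% of all tested genes), with a median log2 fold change of -0.19. Acot13, the most abundant per kilobase at 71.2 ± 11.1 CPM in MOSE-NEO against 74.1 ± 11.6 CPM in MOSE-PAX8, Acot7, Acot8, Acot9 and Them6 were not called, with log2 fold changes of 0.06, -0.20, -0.40, -0.13 and -0.19. Acot7, on the same chromosome as Acot11, was called lower without MOSE-NEO 1 (adjusted p = 0.0259). Them4 fell 1.72-fold from 4.77 ± 0.359 to 2.77 ± 0.201 CPM (SD, n = 3, adjusted p = 0.00646). The mitochondrial thioesterase gene Acot2 was called higher (1.42-fold, 12.3 ± 2.1 to 17.4 ± 2.37 CPM, adjusted p = 0.0295). That call was lost without MOSE-NEO 1 or 2 (0.0994 and 0.102) and without MOSE-PAX8 1 or 3 (0.0736 and 0.114). Acot2 has close relatives in Acot1 and Acot3, and multi-mapping rules were not stated, so its count is uncertain. Acot1 had 2 counts in MOSE-NEO against 4 in MOSE-PAX8, and Acot3 none. Acot12, the closest relative of Acot11 with a START domain, had 11 counts in MOSE-NEO against 10 in MOSE-PAX8. Acot11 ranked 7 of 8 per kilobase in MOSE-NEO against 8 of 8 in MOSE-PAX8.

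Among 12 tested genes of the START domain family, 3 rose and 3 fell (50% called, against 33.9% of all tested genes), with a median log2 fold change of -0.16. Dlc1, a GTPase-activating protein, had 51.4 CPM in MOSE-NEO against 102 CPM in MOSE-PAX8 (log2 fold change 0.98 ± 0.18 SE, adjusted p = 0.00295). Stard7 and Stard10, both lipid carriers, also rose, with log2 fold changes of 0.40 ± 0.08 and 0.78 ± 0.19 (SE). Stard10 lost its call with both lincRNA-rich libraries left out (adjusted p = 0.0518). The genes called lower were Star, Stard5 and Pctp (log2 fold changes -0.36, -0.25 and -0.68; adjusted p = 0.0282, 0.0232 and 0.0488). None of these falls was called without MOSE-PAX8 1, 2 or 3, where adjusted p was 0.0696, 0.0703 and 0.0633 for Star, 0.0798, 0.0652 and 0.0649 for Stard5, and 0.124, 0.0944 and 0.104 for Pctp. Star was also lost without MOSE-NEO 2 or 3 (0.0896 and 0.081), Stard5 without MOSE-NEO 2 (0.0611) and Pctp without MOSE-NEO 1 or 3 (0.0581 and 0.175). In the fit blocked on replicate number, Stard5 and Pctp had adjusted p of 0.0506 and 0.0646, which leaves 1 lower gene in this family. Pctp was also not called with DESeq2 (0.0541), with limma-voom (0.0501) or with both lincRNA-rich libraries left out (0.0922).

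Of 30 tested genes that activate and oxidise fatty acids, 5 rose and 4 fell (30% called, against 33.9% of all tested genes), with a median of -0.04 on the log2 scale. Acaa2, the last enzyme of mitochondrial beta-oxidation, had 74.8, 84.1 and 83.0 CPM in MOSE-NEO against 498, 494 and 564 CPM in MOSE-PAX8, a 6.43-fold rise (adjusted p = 7.15e-07). That is close in size to the 6.68-fold difference of Acot11, in the other direction. Fabp4, a fatty acid carrier of adipocytes, rose from 8 to 69 counts over 3 libraries each (adjusted p = 0.00184), and Acsl4, an acyl-CoA synthetase, had a log2 fold change of 0.40 ± 0.09 (SE). Slc27a4, a fatty acid transporter, and the peroxisomal genes Acaa1a and Acox3 fell, with log2 fold changes of -0.53 ± 0.09, -0.48 ± 0.08 and -0.63 ± 0.14 (SE). Cpt1a, which admits long-chain acids to mitochondria, had 201 and 185 CPM and was not called (adjusted p = 0.281).

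**Figure D3:**
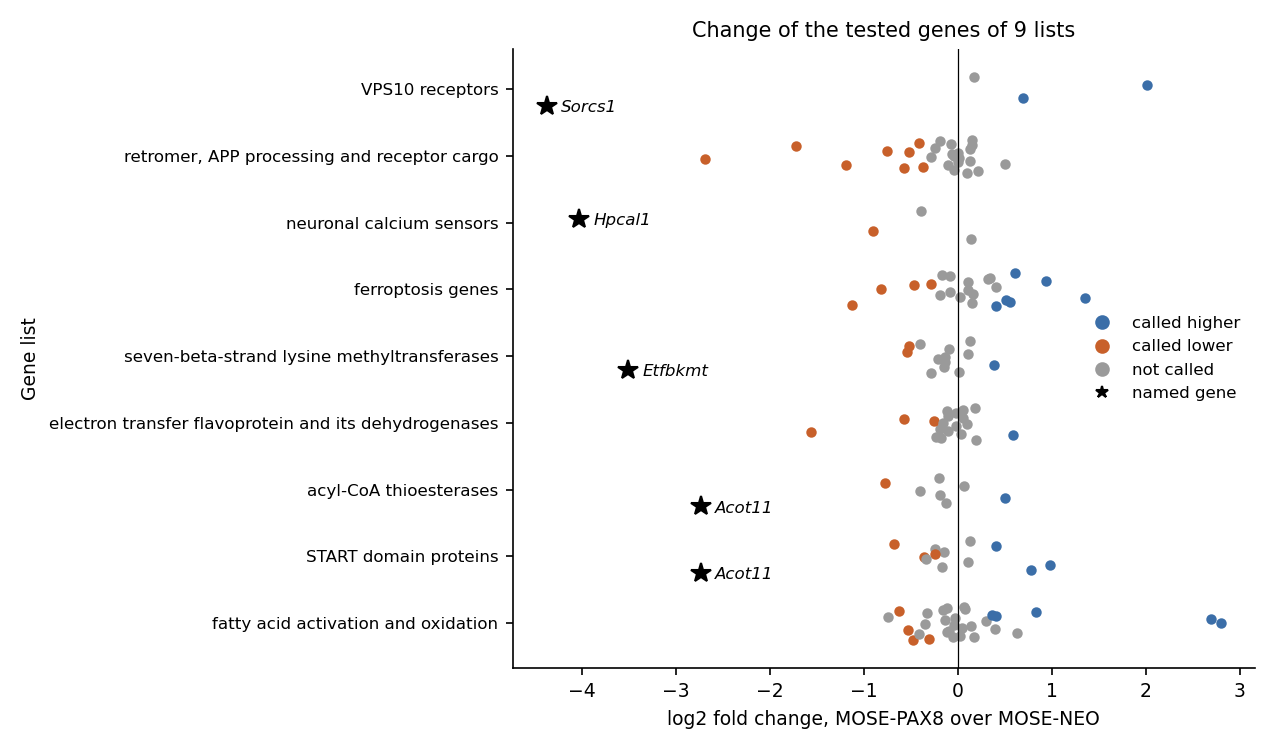
Log2 fold change (MOSE-PAX8 over MOSE-NEO) of each tested gene in 9 lists, 1 dot per gene, coloured by its call, with spread within a row for visibility only. Sorcs1, Hpcal1, Etfbkmt and Acot11 (stars) lie to the left of every other gene in their lists.

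The genes around the 4 were not lower to a like extent. Over the nearest tested coding genes, 5 on each side (3 on 1 side of Etfbkmt, which lies near the end of its chromosome), 38 neighbours were read. Of these, 10 rose, 4 fell and 24 were not called. That is 26.3% higher and 10.5% lower, against 17.9% and 16.1% of all tested genes. No neighbour had a log2 fold change below -0.82.

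Sorcs1 lies in a region with few tested genes. Its nearest tested neighbours were Cfap43, a cilia and flagella gene 2.76 Mb to one side, and Xpnpep1, an aminopeptidase gene 2.36 Mb to the other. The median log2 fold change of the 10 neighbours was 0.06, with 1 higher and 1 lower. Xpnpep1 was at 133 and 149 CPM and not called (adjusted p = 0.17). Cfap43 rose 1.5-fold (adjusted p = 0.0125, but 0.0522 without MOSE-NEO 2), and Dusp5, a phosphatase of ERK at 2.85 Mb, fell 1.59-fold (adjusted p = 0.016, but 0.0618 without MOSE-PAX8 3). Slk, Sfr1, Gsto1, Gsto2, Add3, Mxi1 and Smndc1 had log2 fold changes between -0.09 and 0.31 and were not called. Chromosome 19 as a whole (463 tested genes) had a median of 0.17.

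Around Hpcal1 the neighbours leaned higher. Of 10, 5 rose and 1 fell, with a median log2 fold change of 0.21, and chromosome 12 as a whole (422 tested genes) had a median of 0.19. The nearest, the ornithine decarboxylase gene Odc1 at 146 kb, had 89.7, 99.2 and 107 CPM in MOSE-NEO against 96.2, 90.1 and 100 CPM in MOSE-PAX8, and these overlap (log2 fold change -0.05 ± 0.09 SE). Rock2, a kinase gene at 796 kb, rose 1.42-fold from 158 to 224 CPM (adjusted p = 0.00352). Nol10 (at 342 kb), Cpsf3 (3.59 Mb) and Iah1 (3.63 Mb) rose 1.27-fold, 1.29-fold and 1.38-fold. On the side of higher coordinates only 5730507C01Rik, at 824 kb, lay nearer than Asap2 at 3.3 Mb. Asap2 was called higher by 1.29-fold (adjusted p = 0.0478), and the call was lost without MOSE-NEO 1 or 3 (0.0706 and 0.107) and without MOSE-PAX8 1, 2 or 3 (0.15, 0.0741 and 0.0542). Pqlc3 fell 1.32-fold (adjusted p = 0.0121, but 0.0554 without MOSE-PAX8 3). Pdia6, Itgb1bp1 and 5730507C01Rik were not called, with log2 fold changes of -0.04, -0.04 and 0.07.

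Etfbkmt had the closest flanking genes. Dennd5b, a regulator of Rab GTPases whose start is 38.2 kb away, rose 1.52-fold, from 45.0, 41.6 and 36.6 CPM in MOSE-NEO to 55.1, 69.8 and 62.2 CPM in MOSE-PAX8 (adjusted p = 0.00355). Amn1, 48.9 kb away on the other side, had 27.0, 19.8 and 16.9 CPM in MOSE-NEO against 13.4, 21 and 13.3 CPM in MOSE-PAX8. These values overlap and Amn1 was not called (adjusted p = 0.182), but without MOSE-PAX8 2 it was called lower (0.0248). Sinhcaf, a subunit of the SIN3 histone deacetylase complex, rose 2.01-fold and Caprin2 1.61-fold, while Bicd1, an adaptor of dynein, fell 1.77-fold (adjusted p = 0.000933). Tmtc1, Ipo8 and Resf1 were not called, with log2 fold changes of 0.44, 0.08 and 0.11. The 8 neighbours had a median of 0.27, and the 614 tested genes of chromosome 6 a median of 0.06.

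The genes around Acot11 were mostly not called. Of 10 neighbours, 1 rose, 1 fell and 8 were not called, with a median log2 fold change of -0.03, and chromosome 4 as a whole (745 tested genes) had a median of 0.03. Ssbp3, the nearest tested gene on one side at 106 kb, fell 1.27-fold, from 147, 170 and 163 CPM in MOSE-NEO to 129, 129 and 121 CPM in MOSE-PAX8 (adjusted p = 0.0111, but 0.0621 without MOSE-PAX8 3). Ttc4, at 126 kb on the other side, had 23.4 and 23.5 CPM in the lines. Ttc22 was called higher at a very low level, 0.494 against 1.73 CPM (adjusted p = 0.0268). It lost the call without MOSE-NEO 1 or 3 (0.0888 and 0.0714) and without MOSE-PAX8 2 or 3 (0.0657 and 0.0587). Mrpl37, of the mitochondrial ribosome, had 31.0 and 31.1 CPM. Usp24, Pars2, Cyb5rl, Tmem59 and Tceanc2 had log2 fold changes of -0.05, 0.43, -0.08, -0.15 and -0.28 and were not called.

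**Figure D4:**
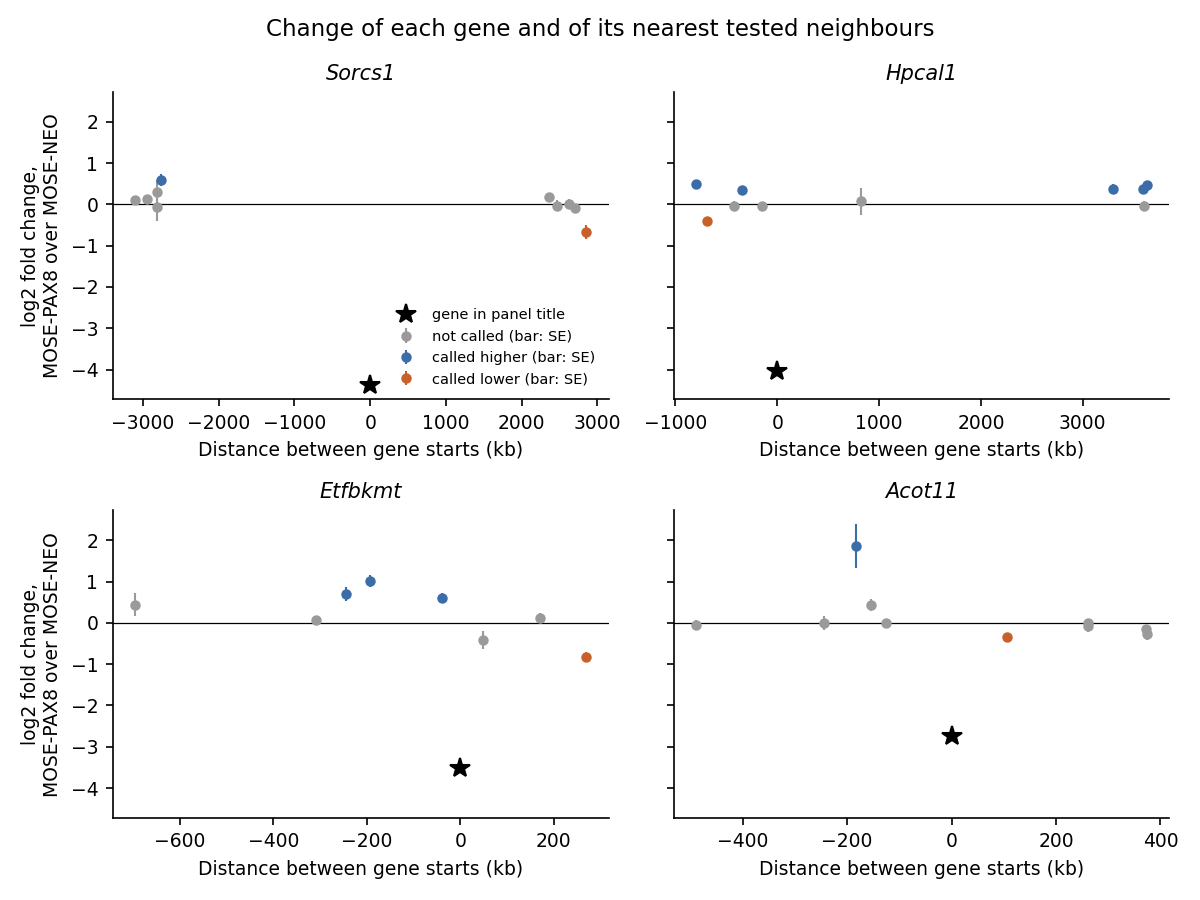
Log2 fold change (MOSE-PAX8 over MOSE-NEO, bars SE) of the nearest tested coding genes against the distance between gene starts in kb, 1 panel per gene, with the gene itself as a star at 0. The neighbours lie between -0.82 and 1.85, while Sorcs1, Hpcal1, Etfbkmt and Acot11 lie between -4.38 and -2.74.

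The genes whose pattern over the 6 libraries was most like each of the 4 were read from the Pearson correlation of log2(CPM + 0.5), among 9005 other coding genes with at least 10 CPM in the higher line. The lines form separate clusters, so a high correlation mostly reflects the difference between lines, and 442 to 641 genes exceeded 0.95 for each. Nearest to Sorcs1 were Commd6, the prostate-associated transporter gene Slc45a3 and Nras, with r from 0.9986 to 0.9995. Nearest to Hpcal1 were Bap1, the adenylate kinase gene Ak1 and the homeobox gene Hoxa10 (0.9978 to 0.9991). Fam149b, Rcbtb1 and the glutamate transporter gene Slc1a2 were nearest to Etfbkmt (0.9987 to 0.9988), and Flt4, the VEGF receptor of lymphatic endothelium, Wdr41 and Rab40c to Acot11 (0.9969 to 0.9984). The size of the fall was not matched: these 12 genes were 1.28-fold (Bap1) to 4.94-fold (Hoxa10) lower in MOSE-PAX8. Among them, Commd6, Bap1, Fam149b and Rcbtb1 lie on chromosome 14, whose tested genes had a median log2 fold change of -0.43.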

How the data were processed

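RNA was sequenced from 3 libraries of each line. The authors deposited raw read counts per Ensembl gene, 1 table per library, and the submitters' processing notes name cutadapt 1.13, STAR, HTSeq 0.6.1p1 and DESeq2, with mm10. Strand setting, annotation and multi-mapping rules were not stated there, so overlapping genes and close copies are uncertain.

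Symbols, positions and exon lengths were taken from GENCODE M21 (mm10), which matched 24991 of 25006 identifiers. Promoters of all 4 genes came from the RefSeq table (GRCm38.p6). Counts were fitted in edgeR 4.0.16 (R 4.3.3) by quasi-likelihood, with TMM factors, filterByExpr and Benjamini-Hochberg adjustment over 12313 genes. Every adjusted p is from this fit unless another tool is named, and SE was worked back from the test statistic. The fit was run on simulated counts, where it recovered most of the genes given the largest change. Those counts held far fewer changed genes than were called here, and no effect shared by libraries. The run therefore does not show how reliable the calls are. Alternatives were DESeq2 1.42.0, limma-voom (limma 3.58.1), leaving out each library, a block on the replicate number, RLE factors, omitting the low-count filter, requiring 1 CPM in 3 libraries, the 2 lincRNA-rich libraries left out, transcript length and 10 neighbours on each side.

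The 4 genes, the gene lists and the rule for named genes were chosen with earlier results of these data known. The rule took the 4 genes, their 5 nearest tested coding genes per side, all tested genes of the 4 families, up to 3 called genes per direction of the other lists, 3 genes of most similar pattern and the 3 genes after Acot11 by size of fall. Some genes that the rule takes are not reported here.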

Additional observations from a re-analysis of the deposited data

How the results depend on the processing

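Over all settings the log2 fold change ran from -4.48 to -4.3 for Sorcs1 and from -4.31 to -3.75 for Hpcal1. It ran from -3.6 to -3.38 for Etfbkmt and from -2.93 to -2.44 for Acot11. These settings reuse the libraries that chose the 4 genes, so they describe the fall and do not test it. Deviations of same-numbered libraries had correlations of -0.465, 0.0541 and 0.402, without a common sign, so the numbers were not used as pairs. Differently numbered libraries reached 0.627 for MOSE-NEO 1 with MOSE-PAX8 2, the 2 lincRNA-rich libraries. MOSE-NEO 3 with MOSE-PAX8 2 gave -0.645. Deviations were taken from each line's own mean, so they cancel within a line and these correlations are not independent. Whether deviations were shared across the lines was not tested. With the replicate number as a block, the lower START domain genes numbered 1 and the higher methyltransferases 0. Ferroptosis genes called higher numbered 9 with that block, against 6 in the main fit. Over all settings 5 to 9 of them were higher and 3 to 4 lower. With DESeq2 and with RLE factors the higher methyltransferases were also 0. With no low-count filter 1 calcium sensor was called higher. With a filter of 1 CPM in 3 libraries, 1 VPS10 receptor and 0 neighbours of Acot11 were higher, and the median of the neighbours of Hpcal1 was 0.35. That filter removed Sorcs2, Ttc22 and 5730507C01Rik, so these genes were not tested there. With both lincRNA-rich libraries left out, 1 VPS10 receptor, 0 methyltransferases, 0 thioesterases and 0 neighbours of Acot11 were higher, and 2 thioesterases and 2 neighbours of Etfbkmt were lower. With 10 neighbours on each side, those higher were 20% for Sorcs1, 23.1% for Etfbkmt and 20% for Acot11, and those lower 7.69% for Etfbkmt.

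With 1 library left out in turn, genes called lower ranged from 1314 (without MOSE-PAX8 replicate 3) to 1843. Called higher were 1 to 2 VPS10 receptors, 0 to 1 methyltransferases, 0 to 1 thioesterases, 3 to 5 genes of fatty acid activation and oxidation, and 0 to 1 neighbours each of Sorcs1 and Acot11. Called lower were 0 to 1 calcium sensors, 1 to 2 thioesterases, 0 to 2 START domain genes, 0 to 1 neighbours each of Sorcs1, Hpcal1 and Acot11, and 1 to 2 neighbours of Etfbkmt. The median of the neighbours ranged from -0.01 (without MOSE-NEO replicate 1) to 0.14 for Sorcs1 and from -0.1 to 0.01 (without MOSE-PAX8 replicate 3) for Acot11. The cause of these changes was not tested, other than the fewer libraries or genes in each setting. With the longest transcript as gene length, Etfbkmt ranked 6 and Acot11 8 in MOSE-NEO. Depth limits the 4 genes in MOSE-PAX8, where they had 24 to 94 counts per library.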
